A study of Mus musculus with 8 samples.

Results

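The Cyp4 fatty acid omega-hydroxylases described here are 10 genes, Cyp4a10, Cyp4a12a, Cyp4a12b, Cyp4a14, Cyp4a31, Cyp4a32, Cyp4f13, Cyp4f14, Cyp4f15 and Cyp4v3, out of 56884 genes in the count tables. They were chosen by name, as the Cyp4a and Cyp4f paralogs and Cyp4v3, and all 10 were found through their gene identifiers. The 10 other Cyp4 genes of the annotation were kept apart and served for comparison. Liver poly(A) RNA of 18-month-old female C57BL/6J mice was sequenced, with 1 library per mouse, to see which liver transcripts differ when part of the fat of an obesogenic diet is replaced by DHA. The DIO group (n = 3, replicates 1, 4 and 5) ate an obesogenic diet rich in saturated fat, in which lipids gave 45% of the energy, from the age of 2 months onward. The DIO + DHA group (n = 5, replicates 1, 2, 4, 5 and 6) ate the same diet for the first 4 months, and from then on a version in which a fish oil concentrate stood for 15% by weight of the dietary lipids. The concentrate held 683.4 mg of DHA and 46.7 mg of EPA per g, in 838.9 mg of n-3 fatty acids in all, so the groups differ in saturated fat and in several n-3 fatty acids, and the parts of these cannot be told apart. Mixed tocopherols came with the concentrate and were given in the DIO diet too. Both groups were of 1 inbred strain, were obese and were fasted overnight before the liver was taken, and no lean group is part of this comparison. The study housed its mice 5 to a cage, and the labels do not say which mice shared one. The p-values take the mice as independent, so they measure the spread between these mice only.

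Cyp4 enzymes are microsomal cytochromes P450 that put a hydroxyl group on the last carbon of a fatty acid chain. The product is oxidised further by alcohol and aldehyde dehydrogenases to a dicarboxylic acid, which peroxisomes shorten. The Cyp4a genes of the rodent liver are textbook targets of the fatty acid receptor PPAR alpha and rise in fasting, whereas the Cyp4f enzymes are known for hydroxylating leukotrienes and other eicosanoids as well as long-chain fatty acids. Cyp4a12a and Cyp4a12b are known as male-biased genes of the liver and kidney, and Cyp4v3 is the mouse counterpart of human CYP4V2, which acts on medium-chain and polyunsaturated fatty acids.

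All coordinates are those of the count tables, on GRCm39. The 6 Cyp4a genes lie in 1 cluster of 323 kb on chromosome 4, from 115156243 to 115478799. In order along the chromosome they are Cyp4a12a (ENSMUSG00000066071.7, 115156243 to 115190012), Cyp4a12b (ENSMUSG00000078597.3, 115268821 to 115296231), Cyp4a14 (ENSMUSG00000028715.3, 115343397 to 115353339), Cyp4a10 (ENSMUSG00000066072.14, 115375461 to 115390846), Cyp4a31 (ENSMUSG00000028712.13, 115420846 to 115436212) and Cyp4a32 (ENSMUSG00000063929.7, 115458166 to 115478799). Cyp4a14 is on the minus strand and the other 5 are on the plus strand. The 3 Cyp4f genes lie within 262 kb of chromosome 17, with Cyp4f15 (ENSMUSG00000073424.10, 32904601 to 32922326) on the plus strand, and Cyp4f14 (ENSMUSG00000024292.16, 33124044 to 33136316) and Cyp4f13 (ENSMUSG00000024055.16, 33143662 to 33166376) on the minus strand. Cyp4v3 (ENSMUSG00000079057.5) stands alone on chromosome 8, from 45757981 to 45786253 on the minus strand. All 10 are protein-coding genes with 11 to 14 exonic blocks, and counting was done over their exons, UTRs included.

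How alike these genes are is seen at the codons of the haem-binding loop, where a cysteine holds the haem iron of every P450. The 30 coding bases around that cysteine are shown to compare the members at this site, which all of them have. They were read from the GRCm39 genome along the coding sequence of each canonical GENCODE transcript, with the cysteine codon in capitals.
Cyp4a10: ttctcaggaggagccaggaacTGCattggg
Cyp4a12a: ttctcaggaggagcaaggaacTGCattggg
Cyp4a14: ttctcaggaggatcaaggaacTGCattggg
Cyp4f13: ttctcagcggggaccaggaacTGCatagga
Cyp4f14: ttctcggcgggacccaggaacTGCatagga
Cyp4f15: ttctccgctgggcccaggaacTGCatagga
Cyp4v3: ttttctgctggacctcgaaacTGTattggt
Cyp4a31 and Cyp4a32 carry the same 30 bases as Cyp4a10, and Cyp4a12b those of Cyp4a12a. From the Cyp4a10 stretch, that of Cyp4a12a differs at 1 base, that of Cyp4a14 at 2, those of Cyp4f13 and Cyp4f14 at 6 each, that of Cyp4f15 at 7 and that of Cyp4v3 at 10. The cysteine is encoded by codon 456 of 509 in Cyp4a10 and by codon 454 of 507 in Cyp4a14.

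In alignments of the coding sequences, 96.6% of aligned bases are identical between Cyp4a10 and Cyp4a31 and 98.5% between Cyp4a12a and Cyp4a12b. The coding sequence of the Cyp4a32 model is shorter, with 1209 bases against 1527 in Cyp4a10, and 97.9% of those that align are identical. Cyp4a14 stands farther off, with 76.8% identity to Cyp4a10. Between Cyp4a10 and the genes of the other subfamilies the values are 64.5% for Cyp4f13, 63.9% for Cyp4f14 and 58.4% for Cyp4v3. Identity matters for the counts because only unique alignments were counted, so that a read from a stretch held by more than 1 gene was lost to all of them. The stretch below is shown because it separates the 3 near-identical genes. It is the 30-base window with most differences between Cyp4a10 and Cyp4a31 near the 3′ end of the coding sequence, bases 1186 to 1215 of both and 868 to 897 of Cyp4a32, and the capitals mark the bases at which the 3 genes are not all alike.
Cyp4a10: gtcacCttCcctgatggaCgCtctttaccC
Cyp4a31: gtcacCttTcctgatggaTgTtctttaccT
Cyp4a32: gtcacTttCcctgatggaCgCtctttaccC
Cyp4a31 differs from Cyp4a10 at 4 of these bases and from Cyp4a32 at 5, and Cyp4a32 differs from Cyp4a10 at 1.

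The libraries were enriched in 3′ ends, so the last 500 transcript bases that lie in counted exons were scanned in windows of 80 bases for exact matches to the transcripts of other genes. Cyp4a14, Cyp4a31, Cyp4f13, Cyp4f14, Cyp4f15 and Cyp4v3 shared none of the 421 windows, and Cyp4a10 shared 0.713% of them, with Cyp4a32. The values were larger for Cyp4a12a and Cyp4a12b, at 31.8% each with one another, and largest for Cyp4a32, at 52.3%, with Cyp4a10 and Cyp4a31. The count of Cyp4a32 is for this reason uncertain, and it also lacks 520 of the 1738 bases of its present transcript model, which lie outside the counted exons. Of the present transcripts of Cyp4f14 and Cyp4f15, 3503 of 5711 and 494 of 2641 bases are outside them. Cyp4v3 shares 8.22% of its exon bases with Gm45753, a gene model on the same strand, and reads there were not assigned.

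Expression is given in CPM, each count relative to the total of its library after TMM scaling. The libraries held 1723800 to 5690347 counts, the lowest total being that of DIO replicate 1, and no 2 libraries of a group agreed within counting error, with a chi-square per degree of freedom of 1.86 to 4.90. Genes with fewer than 5 counts in over 50% of the DIO libraries and likewise of the DIO + DHA libraries were set aside, and 12412 genes were tested. Defining markers of hepatocytes were present throughout, with a summed level of 133027 to 140339 CPM in the DIO libraries and 136575 to 148093 CPM in the DIO + DHA libraries over 15 listed genes. Of these, 6 were called lower, among them Hpx (6170 and 3077 CPM on average in DIO and DIO + DHA), Fga (4095 and 2761 CPM) and Fgb (9073 and 6377 CPM), and 3 higher, among them Apoa1 (9287 and 13316 CPM), while without DIO + DHA replicate 4 only 1 was higher. Markers of other tissues and cells also differed between the groups. The summed level of 20 skeletal muscle genes was 44.7 to 51.8 CPM in DIO and 1464 to 1597 CPM in DIO + DHA, that of 15 squamous epithelium genes 0 to 0.541 and 53.6 to 59.6 CPM, and that of 15 macrophage and neutrophil genes 554 to 628 and 338 to 380 CPM. In bulk tissue, fewer cells of a type and less RNA per cell cannot be told apart. The source of the muscle and squamous epithelium RNA was not tested. Its level was higher in every DIO + DHA library than in any DIO library, so what came with it cannot be told apart from the diet.

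Of the 10 Cyp4 genes, 8 were tested, and the other two, Cyp4a12a and Cyp4a12b, were below the count minimum. By edgeR's quasi-likelihood test at a Benjamini-Hochberg adjusted p under 0.05, Cyp4a10, Cyp4a14 and Cyp4a31 were higher in DIO + DHA than in DIO, and 5 genes were not called. No member was called lower, although Cyp4f14 had an unadjusted p of 0.0175 in the same edgeR fit and was called lower in 3 of the alternative fits. Over all genes tested, 15.2% were called, 7.89% higher and 7.28% lower. The same 3 members had a log-odds B above 0 in limma-voom, the criterion of the study's methods, which 6.93% of all genes tested reached. The 3 that rose are neighbours within the Cyp4a cluster, and the genes of chromosomes 17 and 8 are among those not called.

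**Figure D1:**
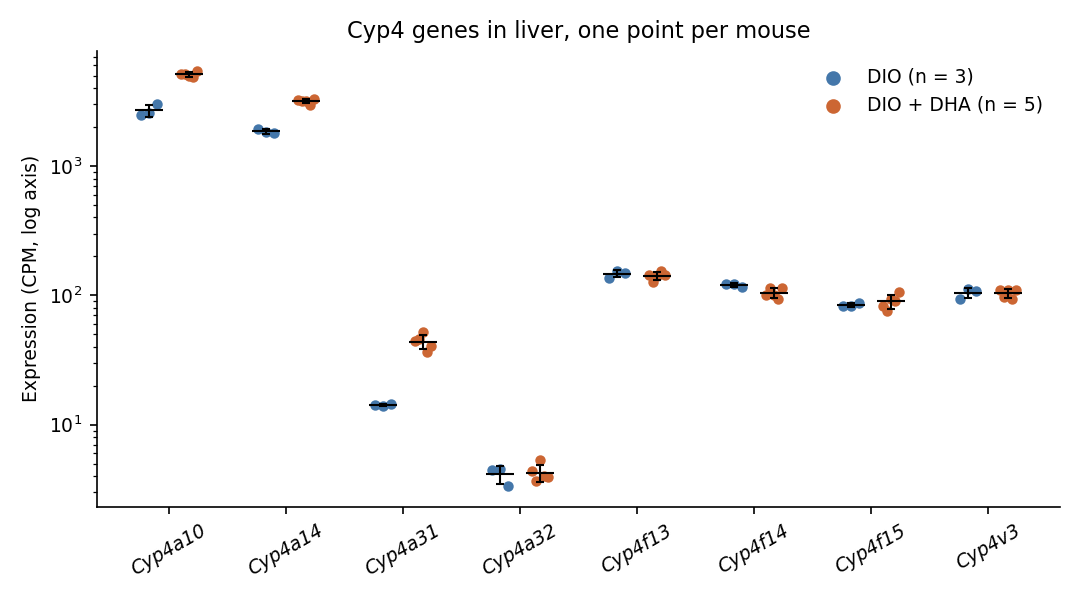
Expression of the 8 tested Cyp4 genes in CPM on a log axis, with 1 point per mouse and bars for the mean ± SD of the DIO (n = 3) and DIO + DHA (n = 5) groups. The points of Cyp4a10, Cyp4a14 and Cyp4a31 lie higher in every DIO + DHA mouse than in any DIO mouse, and those of Cyp4a32, Cyp4f13, Cyp4f15 and Cyp4v3 overlap.

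Cyp4a10 is the main inducible fatty acid omega-hydroxylase of the mouse liver and was the most abundant member. In the DIO group it was at 2484, 2560 and 3023 CPM in replicates 1, 4 and 5. In the DIO + DHA group it was at 5142, 5127, 4998, 4876 and 5382 CPM in replicates 1, 2, 4, 5 and 6. The groups did not overlap, and the lowest DIO + DHA mouse stood well above DIO replicate 5, the highest of its group. The DIO mean was 2689 ± 292 CPM (SD over 3 mice) and the DIO + DHA mean 5105 ± 189 CPM (SD over 5 mice). The log2 fold change was 0.92 (standard error 0.06, 95% interval 0.80 to 1.05), with an adjusted p of 5.1e-18 by the quasi-likelihood test of edgeR after Benjamini-Hochberg adjustment. On a linear scale this is a 1.90-fold difference (95% interval 1.74 to 2.07). By mean CPM, Cyp4a10 ranked 30 among all genes tested.

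Cyp4a14, a close functional relative of Cyp4a10 that lies beside it on the opposite strand, is the other abundant Cyp4a gene. Its level was 1946, 1825 and 1800 CPM in the DIO mice and 3216, 3198, 3165, 2976 and 3322 CPM in the DIO + DHA mice. The mice of each group lay close together, with a coefficient of variation of 4.20% in DIO and 3.97% in DIO + DHA, and the groups were far apart. The means were 1857 ± 78.0 CPM (SD over 3 mice) and 3176 ± 126 CPM (SD over 5 mice), and the log2 fold change was 0.77 (standard error 0.06, 95% interval 0.65 to 0.90, adjusted p = 1.1e-15 by the same edgeR test). This gene ranked 42 by mean CPM.

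Cyp4a31, whose coding sequence is nearly that of Cyp4a10, was present at a far lower level and had the largest fold change of the 8. It was at 14.1, 13.9 and 14.4 CPM in the DIO mice and at 44.6, 45.9, 51.7, 36.8 and 40.8 CPM in the DIO + DHA mice. The DIO mice were almost equal, with a coefficient of variation of 1.75% where counting error alone would give 12.8%, and the DIO + DHA mice varied by 12.8% where counting error would give 7.67%. All 5 DIO + DHA mice were above all DIO mice. The means were 14.1 ± 0.247 CPM (SD over 3 mice) and 44.0 ± 5.62 CPM (SD over 5 mice), and the log2 fold change was 1.62 (standard error 0.14, 95% interval 1.35 to 1.90, adjusted p = 8.7e-15 by the same edgeR test), or 3.08-fold (95% interval 2.55 to 3.72). When the counts of Cyp4a10, Cyp4a31 and Cyp4a32 were summed into 1 gene, the log2 fold change of the sum was 0.93 (adjusted p = 4.1e-18 by the same edgeR test).

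Cyp4a32, the third of the near-identical genes, was at 4.50, 4.51 and 3.37 CPM in the DIO mice and at 4.36, 3.69, 5.35, 3.98 and 3.93 CPM in the DIO + DHA mice. The groups overlapped, and the highest and the lowest value of all were in different groups. The log2 fold change was 0.07, with a 95% interval of -0.50 to 0.63 that holds changes of appreciable size in both directions (adjusted p = 0.921 by the same edgeR test). Its sign was not fixed, since it was -0.08 without DIO replicate 5 and -0.02 without DIO + DHA replicate 4.

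The male-biased Cyp4a12a and Cyp4a12b were near 0 in these female mice. Cyp4a12a had 1 count each in DIO replicate 5 and DIO + DHA replicates 2 and 6 and none in the other 5 libraries. Cyp4a12b had 0 counts in every library, which allows a level of up to 0.0919 CPM over the 8 libraries together (3 counts, for counting error only). Since part of the 3′ end is the same in both genes, reads from that part were not counted for either. The kidney, where these genes are also known to be expressed, was hardly seen in the libraries. Of 15 kidney markers none reached the count minimum and 9 had 0 counts in all libraries, among them Slc34a1, Slc12a1 and Aqp2, and their summed level was 0 to 1.24 CPM in DIO and 0.335 to 0.874 CPM in DIO + DHA.

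The Cyp4f genes and Cyp4v3 were at levels between those of Cyp4a31 and Cyp4a14, and none was called. Cyp4f13, a Cyp4f hydroxylase of broad tissue distribution, was at 137, 155 and 150 CPM in DIO and at 143, 128, 140, 153 and 144 CPM in DIO + DHA. The groups overlapped over most of their range. The log2 fold change was -0.07 (standard error 0.08, 95% interval -0.22 to 0.09, adjusted p = 0.659 by the same edgeR test).

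Cyp4f14, which is known to hydroxylate leukotriene B4, was the only member with all DIO + DHA mice below all DIO mice. Its level was 123, 122 and 116 CPM in DIO and 100, 114, 101, 93.0 and 114 CPM in DIO + DHA. The gap between the groups was narrow, with DIO replicate 5 close to DIO + DHA replicates 2 and 6. Means were 120 ± 3.95 CPM (SD over 3 mice) and 104 ± 9.24 CPM (SD over 5 mice), and the log2 fold change was -0.20 (standard error 0.08, 95% interval -0.37 to -0.04). It did not pass the test (adjusted p = 0.0933 by the same edgeR test). It passed without DIO + DHA replicate 6 (log2 fold change -0.25, adjusted p = 0.0312), with library sizes alone in place of TMM (-0.22, adjusted p = 0.0499) and with the replicate number as a block (-0.30, adjusted p = 0.0227), each by edgeR. Libraries that do not overlap were seen in 18.4% of all genes tested, higher in 9.54% and lower in 8.88%.

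Cyp4f15, next to these genes in the cluster, was at 82.7, 82.8 and 88.0 CPM in DIO and at 82.3, 76.4, 93.1, 90.6 and 107 CPM in DIO + DHA. The DIO + DHA mice spread on both sides of the DIO mice, with replicate 2 lowest and replicate 6 highest. The log2 fold change was 0.09 (standard error 0.09, 95% interval -0.10 to 0.27, adjusted p = 0.620 by the same edgeR test). Cyp4v3 was at 93.4, 112 and 108 CPM in DIO and at 110, 96.5, 110, 93.9 and 111 CPM in DIO + DHA. Its groups covered nearly the same range, and the log2 fold change was -0.02 (standard error 0.08, 95% interval -0.19 to 0.15, adjusted p = 0.914 by the same edgeR test). For Cyp4f13, Cyp4f15 and Cyp4v3 these intervals leave no room for a change of the size seen in Cyp4a14, whose interval starts at 0.65.

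**Figure D2:**
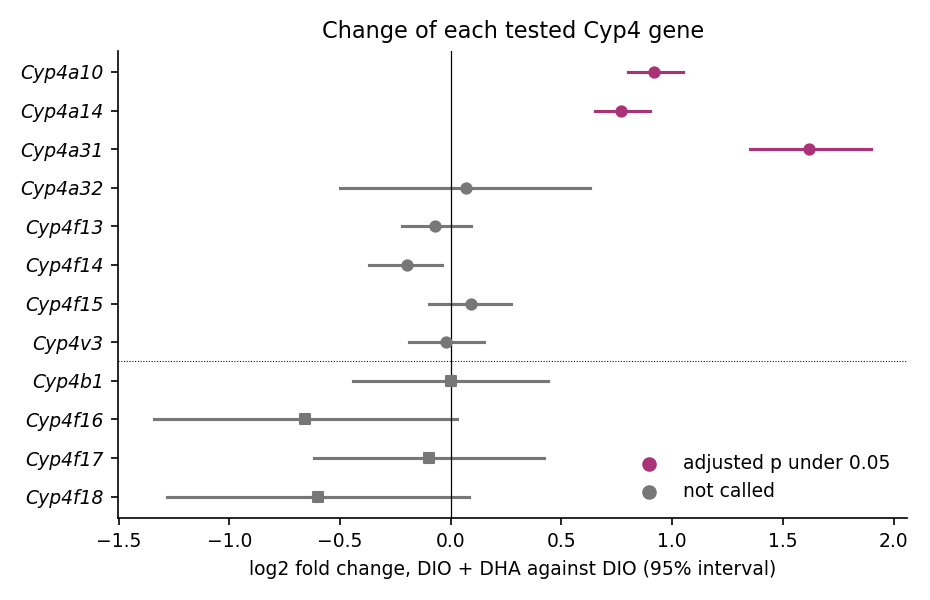
Log2 fold change of DIO + DHA against DIO with its 95% interval (edgeR) for the 8 tested members, above the dotted line, and the 4 tested genes of the other Cyp4 genes, below it. The intervals of Cyp4a10, Cyp4a14 and Cyp4a31 lie fully above 0 at 0.80 to 1.05, 0.65 to 0.90 and 1.35 to 1.90, and the other genes were not called.

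The 10 other Cyp4 genes were weakly expressed or not detected, and none was called. Cyp4a29, Cyp4a30b, Cyp4f37, Cyp4f40 and Cyp4x1 had 0 counts in every library, and 4 genes passed the filter and were tested. Cyp4f39 was below the count minimum, with 0 to 1 count in each DIO library and 1 to 4 in each DIO + DHA library, or 0 to 0.180 CPM and 0.234 to 1.01 CPM, ranges that do not overlap. Cyp4b1, which lies beside Cyp4a32 and is better known from lung, was at 8.26 CPM in DIO and 8.52 CPM in DIO + DHA on average (log2 fold change 0.00). Cyp4f17 was at 5.45 and 4.90 CPM (log2 fold change -0.10). Cyp4f16 and Cyp4f18 were lower in every DIO + DHA mouse than in any DIO mouse, at 3.39 and 2.19 CPM for Cyp4f16 and 3.33 and 2.13 CPM for Cyp4f18, without passing the test (log2 fold changes -0.66 and -0.60, adjusted p = 0.223 and 0.271 by the same edgeR test). Cyp4f18 is the leukotriene hydroxylase of neutrophils. Of the 13 tested macrophage and neutrophil markers, 7 were lower and 1 higher in the same libraries. The 7 are macrophage or general myeloid genes (Adgre1, Clec4f, Vsig4, Cd5l, Csf1r, Cd68 and Lyz2). The 1 that was higher, Marco, is a macrophage gene too (19.6 and 30.4 CPM, log2 fold change 0.66, adjusted p = 1.1e-04 by the same edgeR test). Timd4, another macrophage gene, was not called (log2 fold change 0.19). Of the neutrophil genes, S100a8, S100a9 and Csf3r were not called, with log2 fold changes of -0.18, 0.39 and -0.77. Ly6g and Cxcr2 were below the count minimum. Itgam, a general myeloid gene, was not called either (log2 fold change -0.03). The part of these cells in the value of Cyp4f18 was not tested. In addition, 9.76% of the exon bases of Cyp4f18 are shared with Zfp961 on the opposite strand, and counting did not use strand.

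Levels of different genes were compared per kilobase of counted exon, although in 3′-enriched libraries the count depends less on length than in full-length ones. On this scale the order in DIO was Cyp4a10 (1275 CPM per kb), Cyp4a14 (714), Cyp4f14 (49.8), Cyp4f15 (37.0), Cyp4f13 (33.2), Cyp4v3 (27.5), Cyp4a31 (5.62) and Cyp4a32 (2.69). In DIO + DHA, Cyp4a10 was at 2420 and Cyp4a14 at 1221 CPM per kb, and Cyp4a31 at 17.5 CPM per kb kept its place below Cyp4v3 at 27.4. The order within the Cyp4f genes and Cyp4v3 was not the same without division by length, where Cyp4f13 had the highest mean in both groups. Cyp4f14 at 43.2 and Cyp4f15 at 39.4 CPM per kb were close to each other in DIO + DHA.

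Within the family the balance moved toward Cyp4a10 and Cyp4a14. The 10 genes together took 0.504%, 0.490% and 0.525% of all counts in the DIO libraries and 0.877%, 0.888%, 0.853%, 0.841% and 0.886% in the DIO + DHA libraries. Cyp4a10 and Cyp4a14 held 89.9% to 91.0% of the family's counts in DIO and 94.2% to 94.7% in DIO + DHA. The Cyp4f genes with Cyp4v3 held 8.71% to 9.69% in DIO and 4.72% to 5.18% in DIO + DHA, while their own levels were not called different.

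Ratios between members within a library do not depend on how libraries are scaled. For every 100 counts of Cyp4a10, Cyp4a14 had 78.3, 71.3 and 59.5 counts in the DIO libraries and 62.6, 62.4, 63.3, 61.0 and 61.7 counts in the DIO + DHA libraries. The DIO + DHA mice were nearly equal, whereas the DIO mice ranged from below to above them, with replicate 5 lowest and replicate 1 highest. The log2 ratio differed by -0.16 between the group means (exact two-sided permutation p = 0.107 over the 56 splits of 8 libraries into 3 and 5). Without DIO replicate 5 the groups were apart and the difference was -0.26 (exact permutation p = 0.0476, the smallest that 2 against 5 libraries allow). Without DIO replicate 1 the difference shrank to -0.07 (exact permutation p = 0.429), so its size depended on which DIO library was left out.

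Cyp4a31 rose more than Cyp4a10 in the same libraries. It had 0.577, 0.546 and 0.478 counts per 100 counts of Cyp4a10 in the DIO libraries and 0.870, 0.899, 1.04, 0.757 and 0.761 in the DIO + DHA libraries. The groups did not overlap, and the log2 ratio was higher by 0.69 in DIO + DHA (exact two-sided permutation p = 0.0179, the smallest that the 56 splits allow). For the other 5 genes the ratio to Cyp4a10 was lower in every DIO + DHA library than in any DIO library, each at the same smallest exact p. The log2 differences were -0.89 for Cyp4a32, -0.99 for Cyp4f13, -1.14 for Cyp4f14, -0.85 for Cyp4f15 and -0.93 for Cyp4v3, and they hold the rise of Cyp4a10 itself. In all, 7 such ratios were computed and their p-values are unadjusted.

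**Figure D3:**
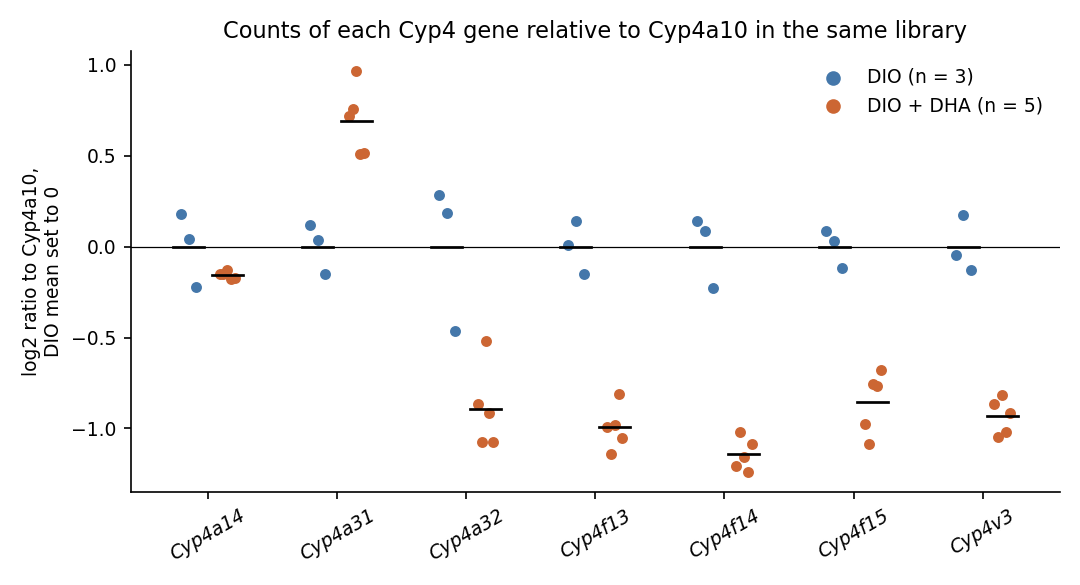
Log2 ratio of the counts of each tested member to those of Cyp4a10 in the same library, with the mean of the DIO libraries set to 0. Points are libraries and bars are group means. Cyp4a31 lies higher by 0.69 in DIO + DHA, Cyp4a14 overlaps, and the other 5 genes lie lower by 0.85 to 1.14.

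By likeness of profile, taken as the root mean square difference of log2 CPM over the 8 libraries after centring each gene on its own mean, Cyp4a10 and Cyp4a14 were 0.126 apart and Cyp4a10 and Cyp4a31 0.356. Among the 6223 genes that averaged 10 CPM or more, those nearest to Cyp4a10 were Cyp8b1 (0.056), the sterol 12-alpha-hydroxylase of bile acid synthesis, Cdkn1a (0.070), a cyclin-dependent kinase inhibitor, Got1 (0.075), the cytosolic aspartate aminotransferase, G0s2 (0.082), an inhibitor of the lipase ATGL, and 2010003K11Rik (0.088). Nearest to Cyp4a14 were Oat (0.071), ornithine aminotransferase, Cyp2c40 (0.071), another P450, Cth (0.074), cystathionine gamma-lyase, Pctp (0.077), the phosphatidylcholine transfer protein, and Pnpla7 (0.077), a lysophospholipase. Each of these differed between the groups by about as much as its Cyp4a gene, from 57.1 to 104 CPM for Cdkn1a and from 748 to 1181 CPM for Oat, and with 8 libraries in 2 groups the measure mostly reflects that difference.

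The genes that act with the Cyp4 enzymes did not move in 1 direction. Of 5 electron donors, which pass electrons from NADPH and NADH to microsomal P450s, 2 fell and 3 were not called, with a median log2 fold change of -0.11 beside 0.00 over all genes tested. Por, the P450 reductase needed by every microsomal P450, fell from 745 ± 36.7 to 577 ± 35.9 CPM (mean ± SD over 3 and 5 mice, as in what follows), and its log2 fold change was -0.37 (adjusted p = 1.6e-05 by the same edgeR test). Cyb5r3, the reductase of cytochrome b5, fell from 404 ± 13.7 to 303 ± 18.3 CPM (log2 fold change -0.42, adjusted p = 3.8e-06 by the same edgeR test). In both genes the groups did not overlap. Cyb5a, cytochrome b5 itself, was at 1791 ± 87.3 and 1784 ± 200 CPM and was not called.

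Among the alcohol and aldehyde dehydrogenases that can carry an omega-hydroxy fatty acid on to the dicarboxylic acid, 3 of 11 tested genes rose, 3 fell and 5 were not called (median log2 fold change -0.10). At B above 0 in limma-voom, 0 were called higher and 2 lower. Adh1, the main hepatic alcohol dehydrogenase, fell from 2945 ± 193 to 2267 ± 112 CPM (log2 fold change -0.38, adjusted p = 2.2e-06 by the same edgeR test). Aldh1a1, a cytosolic aldehyde dehydrogenase, fell by 0.35 on the log2 scale, and the mitochondrial Aldh2 fell by 0.23 with overlapping groups. Aldh1a7 rose from 87.9 ± 3.25 to 113 ± 4.32 CPM and Aldh9a1 by a log2 fold change of 0.30. Aldh3a2, the fatty aldehyde dehydrogenase of the endoplasmic reticulum, was at 187 CPM in DIO and 226 CPM in DIO + DHA on average (log2 fold change 0.27, adjusted p = 0.0109 by the same edgeR test), with groups that overlapped.

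Of the genes for activation, transport and peroxisomal oxidation of dicarboxylic and very long-chain acids, 9 of 20 tested rose, 1 fell and 10 were not called (median log2 fold change 0.14). Ehhadh, the peroxisomal bifunctional enzyme that is central to the shortening of dicarboxylic acids, rose most, from 152 ± 7.91 to 362 ± 8.55 CPM (log2 fold change 1.25, adjusted p = 7.7e-21 by the same edgeR test). Slc27a2, a very long-chain acyl-CoA synthetase, rose from 1653 ± 174 to 2375 ± 306 CPM (log2 fold change 0.52), and Acsl1, Abcd3, Hsd17b4, Acaa1b, Crat and Crot also rose, by log2 fold changes of 0.26 to 0.49. The gene that fell was Acot3, a peroxisomal acyl-CoA thioesterase, from 189 ± 28.6 to 124 ± 9.51 CPM (log2 fold change -0.61, adjusted p = 3.2e-08 by the same edgeR test). Scp2 was at 840 and 913 CPM on average and was not called.

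Ppara itself was at 123 CPM in DIO and 111 CPM in DIO + DHA on average (log2 fold change -0.18, adjusted p = 0.251 by the same edgeR test). Of 16 genes for PPAR alpha and its partners, 3 rose, 1 fell and 12 were not called, with a median log2 fold change of 0.00. Those that rose were Fabp1, which carries fatty acids in the hepatocyte, the coactivator Ppargc1a and, close to the threshold, the retinoid receptor Rxrg (7.68 and 11.6 CPM, adjusted p = 0.0474 by the same edgeR test). The number that rose was 2 with library sizes alone, by DESeq2 and by limma-voom, and in every fit that left out 1 library except those without DIO + DHA replicate 1 or 6. Rxra, the main partner of PPAR alpha in the liver, was at 224 and 220 CPM. Hnf4a, a nuclear receptor that defines hepatocyte identity, fell from 241 to 167 CPM on average (log2 fold change -0.53, adjusted p = 7.1e-08 by the same edgeR test), and without DIO replicate 1 a further gene of the list was called lower, which gave 2.

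Of 35 other target genes of PPAR alpha, 20 rose, 1 fell and 14 were not called, with a median log2 fold change of 0.24. The PPAR alpha targets had already been seen to rise in earlier work on these files, so this is no independent evidence of a direction. The largest changes were in the lipid droplet genes Cidea (0.118 to 2.61 CPM, log2 fold change 3.81) and Cidec (9.53 to 48.9 CPM, 2.39) and in Pdk4, the kinase that inhibits pyruvate dehydrogenase (4.59 ± 0.610 to 23.5 ± 5.22 CPM, 2.27). Cidec is also an adipocyte marker, and of 8 tested adipocyte markers 5 were higher, namely Cidec itself, Adipoq, Fabp4, Cfd and Retn. The part of adipocyte RNA in the values of Cidea and Cidec was not tested. Pdk4 and Ppargc1a are also expressed in skeletal muscle, all 20 markers of which were higher in the same libraries, and the part of muscle RNA in their values was not tested. Abundant targets that are named here moved less, with Ech1, an enoyl-CoA isomerase, at 1003 and 1186 CPM (log2 fold change 0.24), while Acaa2 at 1504 and 1637 CPM was not called. The classical targets Cpt1a, Angptl4 and Pex11a were not called either, with log2 fold changes of 0.07, 0.07 and -0.05. The gene that fell was Fitm1 (log2 fold change -0.35), and the number that fell was 2 without DIO + DHA replicate 6 or with library sizes alone, and 0 at B above 0 in limma-voom.

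**Figure D4:**
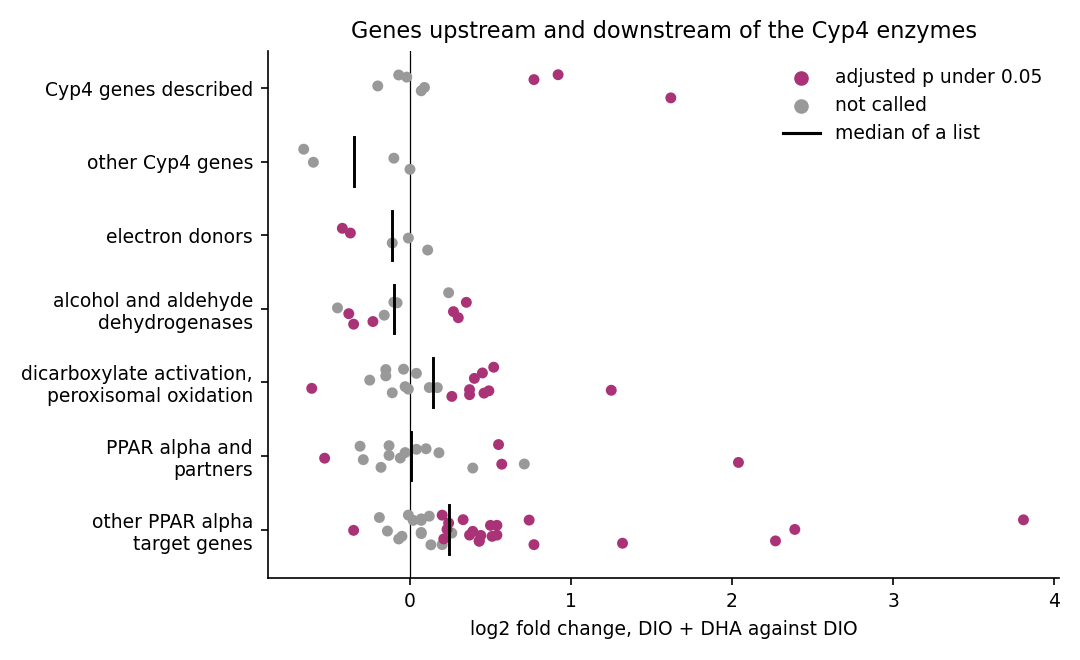
Log2 fold change of DIO + DHA against DIO for each tested gene of the Cyp4 genes described and of 6 further lists. These are the other Cyp4 genes, lists of genes that act with the Cyp4 enzymes or regulate them, and other PPAR alpha target genes. A vertical bar marks the median of each of the 6 lists. The medians run from -0.35 for the other Cyp4 genes to 0.24 for the other PPAR alpha target genes, and 9 of 20 tested genes of dicarboxylate activation and peroxisomal oxidation rose.

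Regulators of sex-biased liver genes were followed because several Cyp4a genes differ between the sexes. Of 12 genes, 1 rose, 4 fell and 7 were not called (median log2 fold change -0.14), and without DIO replicate 5 there were 2 that rose and 2 that fell. Cux2, a female-specific repressor of male-biased genes, fell from 12.3 ± 3.16 to 3.66 ± 1.61 CPM (log2 fold change -1.60, adjusted p = 1.2e-06 by the same edgeR test), and Ghr, the growth hormone receptor, fell from 223 to 175 CPM. Socs2, an inhibitor of growth hormone signalling, rose from 15.1 to 25.5 CPM. In the same libraries Cyp4a12a and Cyp4a12b stayed at 0 or 1 count.

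Cyp4a genes of the mouse liver are known to be expressed mostly by hepatocytes around the central vein, so zonation markers were set beside them. Of 15 pericentral markers, 7 fell, 2 rose and 6 were not called (median log2 fold change -0.21), and their summed level was 6852 to 6946 CPM in DIO and 6036 to 6507 CPM in DIO + DHA. Glul fell by 0.54 and Cyp2a5 by 0.94 on the log2 scale, and Oat rose by 0.66. Those that rose numbered 1 instead of 2 without DIO replicate 4, DIO replicate 5, DIO + DHA replicate 5 or DIO + DHA replicate 6. The 15 periportal markers, with 3 higher and 2 lower, had a median of 0.03 and a summed level of 5354 to 5599 CPM in DIO and 5556 to 5724 CPM in DIO + DHA. Without DIO replicate 5, 1 of them was lower. Thus Cyp4a10, Cyp4a14 and Cyp4a31 rose in libraries in which the summed pericentral markers were lower, and the part of zonation in their levels was not tested.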

How the data were processed

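Liver RNA of 8 mice, 3 DIO and 5 DIO + DHA, was compared, with groups and replicate numbers from the sample labels. The authors made 3′-enriched poly(A) libraries with barcoded primers, aligned the reads to GRCm39 with STAR 2.7.9a and deposited counts per gene from featureCounts 1.6.0 over GENCODE mouse release 33 exons, without normalization. As the 8 commands left strand, multi-mapping and overlap at their defaults, reads were counted without regard to strand, only where uniquely aligned, and not where exons of 2 genes overlap. Collapsing of molecular identifiers is not given in the sources used here, so counting errors may be too small.

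Names came from GENCODE release 39, which held 56323 of 56884 identifiers. Genes under 5 counts in over 50% of the DIO and of the DIO + DHA libraries were dropped, as in the study's methods. Counts were scaled by TMM and tested with the two-sided quasi-likelihood test of edgeR 4.0.16 (R 4.3.3, robust dispersions), adjusted after Benjamini and Hochberg over all 12412 genes tested, at an adjusted p under 0.05. The common biological coefficient of variation was 0.0801. Ratios of counts, with 0.5 added, were compared by exact two-sided permutation tests over 56 splits. A count of 0 was given a limit of 3 counts. The members and lists were chosen with earlier results of these data known. Named list genes are the 3 most abundant and the 3 called genes of largest change per list, and of the other Cyp4 genes all were named. Further genes were named after their values were seen. These were Ppara, Cpt1a, Angptl4, Pex11a, Aldh3a2, Aldh9a1, Fitm1, Fgb and the other peroxisomal genes that rose. They also include the kidney markers named and, among myeloid genes, Adgre1, Vsig4, Marco, Timd4, S100a8, S100a9, Csf3r, Itgam, Ly6g and Cxcr2. Alternatives covered normalization, filter, threshold, test (DESeq2 1.42.0, limma 3.58.1), the replicate block, summed paralogs and leaving out each library. Protein and promoter sequences were not used here. Some genes of the lists are counted but not reported by name here.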

Additional observations from a re-analysis of the deposited data

Results flagged for a closer look

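Dixon's criterion was applied to the 5 mice of the DIO + DHA group for 77 named genes, the 8 tested members among them, and 1 value stood apart. The DIO group, with 3 mice, was not examined in this way. Ehhadh, the peroxisomal bifunctional enzyme, was at 377 CPM in DIO + DHA replicate 4, above the other 4 mice of that group, which lay closer together. The 5 mice ranged from 355 to 377 CPM and the DIO mice from 144 to 159 CPM. Chance alone marks about 1 in 20 such groups, and no member had a value that stood apart in the DIO + DHA group.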

How the results depend on the processing

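Cyp4a10, Cyp4a14 and Cyp4a31 were called higher in every alternative fit in which they stood as separate genes, with log2 fold changes of 0.88 to 1.03, 0.75 to 0.81 and 1.56 to 1.68. The number of members called higher was 3 throughout, or 2 where Cyp4a10, Cyp4a31 and Cyp4a32 were summed into 1 gene. The number called lower was 0 in the fit reported and 1, always Cyp4f14, with library size only, with the replicate block and without DIO + DHA replicate 6, so leaving out 1 library gave 0 to 1; the cause was not tested. Its adjusted p ranged from 0.0227 to 0.290. When 1 library was left out, the log2 fold change of Cyp4a32 ranged from -0.08 to 0.20 (negative without DIO replicate 5 or DIO + DHA replicate 4), that of Cyp4v3 from -0.07 to 0.04 (not negative without DIO replicate 4, DIO replicate 5 or DIO + DHA replicate 5), and neither was called. Over all genes, a log-odds B above 0 from limma-voom called 860 (463 higher, 397 lower), an adjusted p under 0.01 called 1225 (568 lower), and the DESeq2 Wald test called 601 lower, against 1883 (979 higher, 904 lower) in the edgeR fit reported; the cause was not tested. At B above 0, none of the dehydrogenases was called higher. By that criterion 1 sex-biased regulator was higher and 2 were lower, and 1 pericentral marker was higher and 4 were lower. Of the periportal markers 1 was higher and 1 lower, and of the hepatocyte markers 1 was higher and 4 were lower. Leaving out 1 library gave 1432 to 1859 genes. With the replicate number as a block, 1538 genes were called, 817 higher and 721 lower, with 3 members higher. Mice with the same number did not deviate together (correlations -0.013, -0.013 and -0.011 for numbers 1, 4 and 5). None correlated best with its own number. With 3 pairs and no shared factor known from the labels, this cannot show whether they share more than a number. Cyp4a32, with 8 counts in DIO replicate 1, was not tested where 10 counts were required in every library. At these depths Cyp4a12a and Cyp4a12b could not be compared.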
